A study of Mus musculus with 9 samples.

Results

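Prox1, Dsp, C1ql2, Stxbp6, Tdo2, Trpc6 and Lct are genes enriched in dentate granule cells, and their levels are described here in RNA pulled down with the ribosomes of another cell type, the PV INs of CA3/CA2. The 7 genes were given by name, by a rule that uses no measured value, out of 37620 gene identifiers in the count files. They were chosen with earlier results of these data known. All 7 were found and all 7 were among the 15069 genes tested. The samples came from PV-Cre; Rpl22HA/HA mice, in which Cre driven by the parvalbumin gene lets PV INs make ribosomal protein L22 with an HA tag, so that an antibody to HA brings down their ribosomes and the mRNAs on them. The mice were 2 months old, and 2 weeks before harvest a lentivirus with a non-target shRNA (shNT, 5 samples) or with an shRNA against Ablim3 (shRNA, 4 samples) had been injected into the DG. Each sample pooled tissue from 6 mice, the tag and the Cre allele were the same in both groups, and the virus entered cells of the DG while the RNA was taken from CA3/CA2.

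Dentate granule cells are the principal excitatory neurons of the DG. Their axons, the mossy fibers, run into CA3 and CA2 and contact pyramidal neurons and PV INs there, while the granule cell bodies stay behind in the DG. Prox1 is the homeobox transcription factor that sets granule cell identity, and Dsp encodes desmoplakin, a linker of desmosomes to intermediate filaments that is widely used as a marker of the granule cell layer. C1ql2 is a secreted C1q-like protein of mossy fiber synapses, Stxbp6 (amisyn) binds SNARE proteins, Tdo2 is a tryptophan-degrading dioxygenase, Trpc6 is a cation channel gated by diacylglycerol, and Lct is lactase. In tissue, qRT-PCR of Dsp served the study as the marker of DG and Bok as the marker of CA3 when CA3/CA2 was microdissected.

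The sequences just before the start of 5 of these genes are shown because Prox1, Dsp and Lct on the one hand, and Stxbp6 and Trpc6 on the other, followed different patterns over the samples. RefSeq start sites of build GRCm38.p6 were found for 7 of the 7 genes, in 8 windows of 250 bases, Prox1 having a further start inside the gene. Each line gives the 250 bases before the start, 5′ to 3′ on the strand of the gene, and for Prox1 the outermost start. The RefSeq gene extends beyond the start used here for Stxbp6 and Trpc6, so their windows do not lie before the outermost end of the gene. Capitals mark matches, on either strand, to CAGATG or CAGCTG, which are E-boxes, or to TATAAA, the TATA motif. These motifs do not overlap each other in the windows shown.
Prox1, chr1:190170828-190171077, minus strand: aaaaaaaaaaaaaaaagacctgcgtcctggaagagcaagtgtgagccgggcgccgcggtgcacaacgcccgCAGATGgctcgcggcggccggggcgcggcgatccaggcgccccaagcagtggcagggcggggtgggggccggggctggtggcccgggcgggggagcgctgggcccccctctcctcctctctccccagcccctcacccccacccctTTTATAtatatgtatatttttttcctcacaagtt
Dsp, chr13:38151044-38151293, plus strand: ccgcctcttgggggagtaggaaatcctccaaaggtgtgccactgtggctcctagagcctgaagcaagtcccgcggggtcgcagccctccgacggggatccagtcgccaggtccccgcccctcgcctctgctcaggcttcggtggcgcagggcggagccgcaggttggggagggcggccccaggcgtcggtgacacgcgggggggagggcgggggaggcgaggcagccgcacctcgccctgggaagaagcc
Lct, chr1:128328319-128328568, minus strand: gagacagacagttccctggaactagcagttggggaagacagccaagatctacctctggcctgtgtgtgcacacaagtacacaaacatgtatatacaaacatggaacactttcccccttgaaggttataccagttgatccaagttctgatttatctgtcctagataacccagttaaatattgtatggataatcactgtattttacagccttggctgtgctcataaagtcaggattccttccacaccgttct
Stxbp6, chr12:45074484-45074733, minus strand: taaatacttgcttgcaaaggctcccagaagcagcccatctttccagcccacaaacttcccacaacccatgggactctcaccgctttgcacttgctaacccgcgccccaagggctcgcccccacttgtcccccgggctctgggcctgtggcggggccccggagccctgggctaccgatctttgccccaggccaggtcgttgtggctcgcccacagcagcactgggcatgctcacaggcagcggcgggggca
Trpc6, chr9:8543892-8544141, plus strand: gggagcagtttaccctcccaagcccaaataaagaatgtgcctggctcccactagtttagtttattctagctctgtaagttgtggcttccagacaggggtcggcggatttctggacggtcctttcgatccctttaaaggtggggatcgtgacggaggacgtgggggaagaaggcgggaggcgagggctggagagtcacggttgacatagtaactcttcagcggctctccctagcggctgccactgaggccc

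Of the windows shown, only that of Prox1 held a match: CAGATG at 179 bases before the start and TATAAA, read on the other strand, at 34 bases before it. Of the windows not shown, that of Tdo2 held TATAAA at 229 bases before the start, and that of C1ql2 held no match. Among 32851 windows of the same length in the reference table, 14.4% held CAGATG, 13.0% held CAGCTG and 12.4% held TATAAA. The GC content of the 8 windows ran from 42.8% before Lct to 72.4% before Dsp, beside a median of 52.4% for all windows. A match describes the letters of the sequence and nothing more.

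Counts on genes ran from 18281719 to 34578837 per sample. In the share of uniquely aligned reads that fell outside annotated exons, 3 libraries stood apart. They were shNT 2, at 18.6% beside 9.76% to 11.3% in the other shNT samples, and shRNA 1 and shRNA 4, at 19.8% and 27.2% beside 12.5% and 12.4% in shRNA 2 and shRNA 3. Sample names fall into a set of 6 (shNT 1 to 3 and shRNA 1 to 3) and a set of 3 (shNT 4, shNT 5 and shRNA 4), and what the sets mark is not given in the sources used here. Pvalb, the calcium-binding protein that names PV INs, was at 998 ± 287 CPM (SD, n = 5) in shNT and 526 ± 163 CPM (SD, n = 4) in shRNA, and Gad1, the main GABA-synthesizing enzyme, at 3030 ± 766 and 2341 ± 938 CPM. The lowest Pvalb level in any sample was 310.0 CPM, in shRNA 4. Ablim3 itself, targeted in the DG and not in the tagged cells, was at 16.9 ± 5.16 CPM in shNT and 18.5 ± 3.42 CPM in shRNA (log2 fold change 0.13, SE 0.23, edgeR quasi-likelihood FDR = 0.701). Bok was at 34.6 ± 12.6 and 42.9 ± 5.69 CPM (log2 fold change 0.31, SE 0.24, edgeR FDR = 0.374).

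All levels below are counts scaled to library size (CPM) normalized with TMM, and changes are log2 fold changes of shRNA against shNT from edgeR's quasi-likelihood test. A gene was called at a false discovery rate (FDR) under 0.05 over all 15069 genes and a change of at least 1.5-fold. By that rule 0 of the 7 genes were called, where 1.74% of all genes were called higher and 0.0133% were called lower. The unadjusted p was under 0.05 for 3 of the 7, all with higher levels, beside 20.7% of all genes higher and 13.4% lower. For Prox1, Dsp and Lct, 3 of the 7 genes, no shRNA sample overlapped the shNT range, all of them lying above it, where this held for 8.97% of all genes. The likelihood ratio test of edgeR called 2 of the 7 (Prox1 and Lct) higher and 0 lower, beside 11.2% of all genes higher and 3.6% lower. DESeq2 called the same 2 genes higher and 0 lower, beside 10.2% and 5.53% of all genes. With limma voom 3 of the 7 were called higher (Prox1, Dsp and Lct) and 0 lower, beside 15.3% and 4.1% of all genes. The median log2 fold change of the 7 genes was 0.58, and that of all genes tested 0.11. The former was 0.21 without shRNA 4 and 0.01 in the larger set of names described above. In RNA pulled down from pooled tissue, the number of cells of a type and the RNA per cell cannot be told apart. How much of the RNA came from cells without the tag was not tested.

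**Figure D1:**
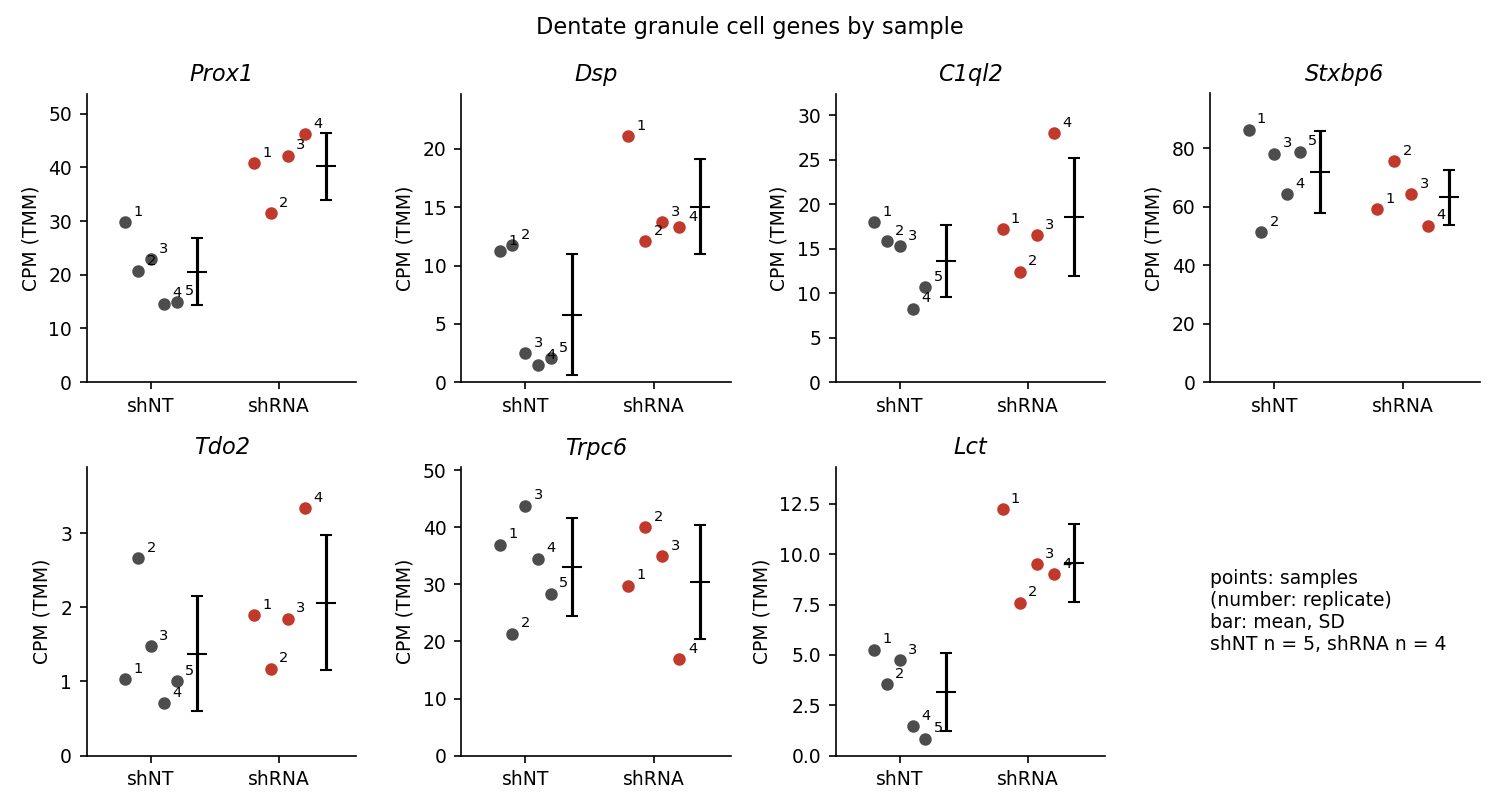
Level of each gene in CPM (vertical axes, from 0) in the 5 shNT and 4 shRNA samples, each point a sample with its replicate number and each bar the mean with SD. Prox1, Dsp and Lct have no overlap between groups, while C1ql2, Tdo2, Stxbp6 and Trpc6 overlap.

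Prox1 spans chr1:191945660-191994559 on the minus strand of build mm9 and was the member closest to a call. It was at 29.8, 20.7, 22.9, 14.6 and 15.0 CPM in shNT 1 to 5 and at 40.8, 31.6, 42.2 and 46.3 CPM in shRNA 1 to 4. The groups did not overlap, and the lowest shNT samples were the pair from the smaller set of names. Its mean was 20.6 ± 6.25 CPM (SD, n = 5) in shNT beside 40.2 ± 6.22 CPM (SD, n = 4) in shRNA. The log2 fold change was 0.96 (SE 0.22), with edgeR FDR = 0.0502, just above the threshold. An exact permutation test of log2 levels gave p = 0.0159 (two-sided), where 0.00794 is the smallest p that 5 against 4 samples allow, and 7 genes were tested in this way without adjustment. Within the larger set of names the log2 fold change was 0.61 (edgeR FDR = 0.385), and in the smaller set 14.6 and 15.0 CPM stood against 46.3 CPM in its only shRNA sample. Leaving out shNT 1 gave 1.13 (edgeR FDR = 0.0191) and leaving out shRNA 2 gave 1.06 (edgeR FDR = 0.0478). Each of the other samples left out gave no call, the smallest value being 0.78 without shNT 5 (edgeR FDR = 0.169). Its exons overlap the antisense gene Gm17566 over 3.22% of their length. Counts were made without regard to strand, and reads that fit more than 1 gene were tallied apart as ambiguous (1.36% to 1.78% of uniquely aligned reads per sample).

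Lct, at chr1:130181333-130224895 (minus strand, mm9), had a log2 fold change above that of the other members in the main test, while that of Dsp was larger with limma voom (2.32 beside 2.06) and without shNT 2 (1.80 beside 1.63). Its levels were 5.26, 3.53, 4.73, 1.46 and 0.847 CPM in shNT 1 to 5, from 27 to 148 reads, and 12.2, 7.60, 9.49 and 9.02 CPM in shRNA 1 to 4, from 180 to 368 reads. The shRNA samples were all above the shNT range, and shNT 4 and shNT 5 were again lowest. The means were 3.17 ± 1.95 CPM and 9.59 ± 1.94 CPM, with a log2 fold change of 1.59 (SE 0.45), edgeR FDR = 0.0648 and exact permutation p = 0.0238. The log2 fold change was 1.08 within the larger set of names (edgeR FDR = 0.238) and 1.86 without shNT 1 (edgeR FDR = 0.0449), the only sample whose removal brought a call.

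Dsp lies at chr13:38243197-38290446 (plus strand, mm9). In shNT it fell into 2 levels, 11.2 and 11.8 CPM in shNT 1 and shNT 2 and 2.50, 1.46 and 2.07 CPM in shNT 3 to 5. In shRNA 1 to 4 it was at 21.1, 12.1, 13.7 and 13.3 CPM. The groups did not overlap, but by a gap of only 11.8 to 12.1 CPM, and with library size alone in place of TMM they did overlap. Means were 5.80 ± 5.20 and 15.0 ± 4.08 CPM, with a log2 fold change of 1.38 (SE 0.57), edgeR FDR = 0.121 and exact permutation p = 0.0476, which became 0.0635 with library size alone. The value within the larger set of names was 0.84 (edgeR FDR = 0.536), and without both shNT 2 and shRNA 4 it was 1.87 (edgeR FDR = 0.0904). Its exons overlap the antisense gene Gm10129 over 3.74% of their length.

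C1ql2, at chr1:122237159-122239748 (plus strand, mm9), overlapped between groups. It was at 17.99, 15.8, 15.3, 8.27 and 10.7 CPM in shNT 1 to 5 and at 17.2, 12.4, 16.6 and 28.0 CPM in shRNA 1 to 4. Only shRNA 4 was above all shNT samples. The log2 fold change was 0.44 (SE 0.27, edgeR FDR = 0.260, exact permutation p = 0.214), and it was -0.13 within the larger set of names.

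Tdo2, at chr3:81761012-81780124 (minus strand, mm9), was the least abundant, with 14 to 74 reads per sample. It was at 1.03, 2.66, 1.47, 0.706 and 1.00 CPM in shNT 1 to 5 and at 1.89, 1.17, 1.85 and 3.34 CPM in shRNA 1 to 4. The highest sample of each group, shNT 2 and shRNA 4, was the library with the most reads outside exons. Its log2 fold change of 0.58 (SE 0.43, edgeR FDR = 0.342, exact permutation p = 0.183) was -0.11 within the larger set of names and -0.01 with the share of reads outside exons in the model.

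Stxbp6 and Trpc6 were the members that were not higher in shRNA. Stxbp6, at chr12:45953475-46175480 (minus strand, mm9), was at 86.3, 51.2, 78.1, 64.3 and 78.8 CPM in shNT 1 to 5 and at 59.2, 75.6, 64.3 and 53.5 CPM in shRNA 1 to 4. Its log2 fold change was -0.18 (SE 0.17, edgeR FDR = 0.454, exact permutation p = 0.357). Trpc6, at chr9:8544432-8680565 (plus strand, mm9), was at 36.9, 21.3, 43.8, 34.5 and 28.4 CPM in shNT 1 to 5 and at 29.8, 40.0, 35.0 and 16.9 CPM in shRNA 1 to 4. Its log2 fold change was -0.12 (SE 0.26, edgeR FDR = 0.764, exact permutation p = 0.627). For both genes shNT 2 was the lowest shNT sample and shRNA 4 the lowest shRNA sample, and without shRNA 4 the value for Trpc6 was 0.08.

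**Figure D2:**
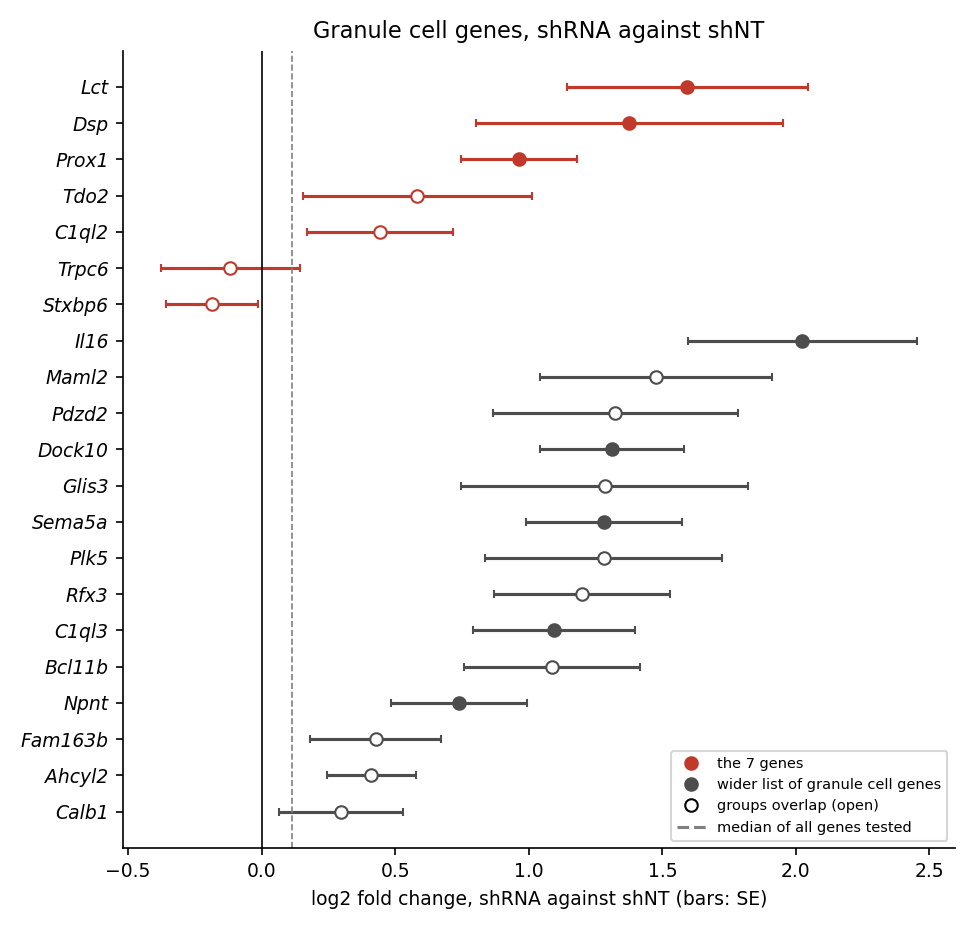
Log2 fold change of shRNA against shNT with SE (horizontal axis) for the 7 genes and for 14 further granule cell genes, with filled points where the groups do not overlap. The 7 genes run from -0.18 to 1.59, the further genes from 0.30 to 2.02, and the dashed line marks 0.11, the median of all genes tested.

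Per length of exon the members split into 2 levels in shNT. In shNT, Stxbp6 was at 14.8 ± 2.88 RPKM (SD, n = 5), Trpc6 at 11.8 ± 3.06, C1ql2 at 6.82 ± 2.00 and Prox1 at 4.99 ± 1.51, followed by Dsp at 0.602 ± 0.540, Lct at 0.495 ± 0.305 and Tdo2 at 0.356 ± 0.199. The gap between Prox1 and Dsp was the only step between neighbors in shNT that was larger than their summed SDs. The 4 genes of the upper level stood above 51.4% to 73.2% of tested genes, and the 3 of the lower level above 11.3% to 16.9%. In shRNA the order of levels was Stxbp6 (13.0 RPKM), Trpc6 (10.9), Prox1 (9.73), C1ql2 (9.29), Dsp (1.56), Lct (1.497) and Tdo2 (0.535), so Prox1 and C1ql2 changed places, by less than their spread. Steps larger than the summed SDs in shRNA were from C1ql2 to Dsp (2.06 times their summed SDs) and from Lct to Tdo2 (1.79 times). The gene model of Trpc6 holds 2790 coding bases of 2793, so its level per length is not matched to those of genes whose models include untranslated ends.

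**Figure D3:**
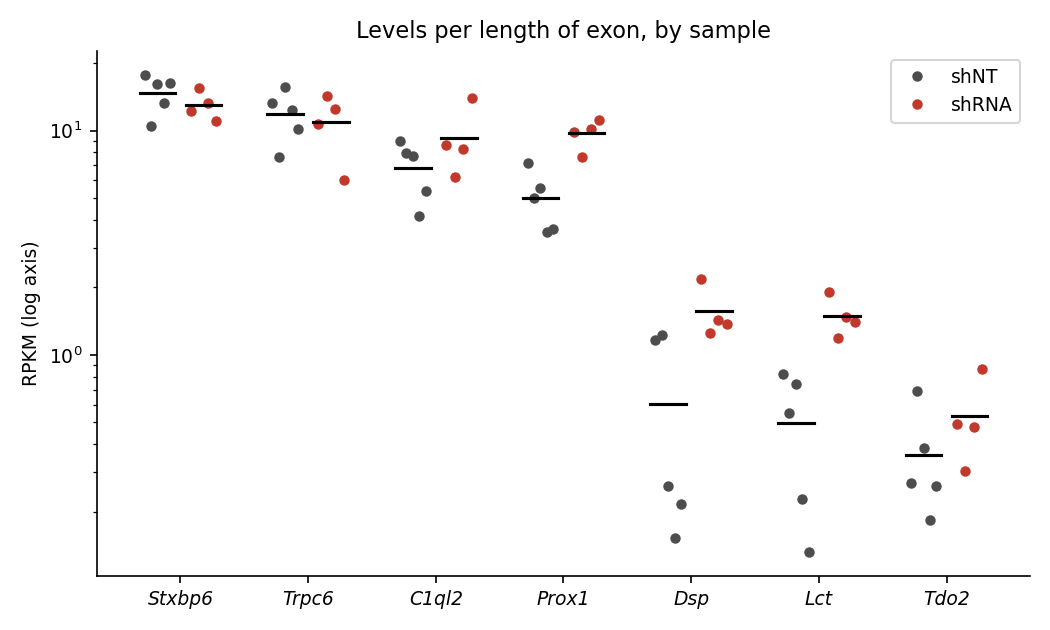
Level per length of exon in RPKM (vertical log axis) for each gene in shNT (n = 5) and shRNA (n = 4), with points as samples and lines as means. Stxbp6, Trpc6, C1ql2 and Prox1 lie above 3.5 RPKM in every sample, and Dsp, Lct and Tdo2 below 2.2 RPKM.

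Over all 9 samples the members fell into 2 groups by the sign of Pearson's r. All 10 pairs among Prox1, Lct, Dsp, C1ql2 and Tdo2 correlated positively in log2 CPM, with Pearson's r from 0.59 to 0.94, and 5 of the 10 had an adjusted p under 0.05. Within the larger set of names only the pairs among Prox1, Lct and Dsp stayed above 0.5 (0.56 to 0.95), while the pairs with C1ql2 or Tdo2 ran from -0.16 to 0.21. The closest pair was Prox1 with Lct (r = 0.94, exact permutation p = 8.27e-05, adjusted p = 0.00174 over 21 pairs; rho = 0.92, exact permutation p = 0.00131, adjusted p = 0.0138), which kept r = 0.92 without shNT 4 and shNT 5, the 2 samples farthest from the median of Prox1. With the group means taken out it was 0.86, and within the larger set of names 0.95. Dsp with Prox1 (r = 0.85, exact permutation p = 0.00488, adjusted p = 0.0259; rho = 0.88, exact permutation p = 0.00308, adjusted p = 0.0215) fell to 0.60 without those samples. Stxbp6 with Trpc6 had r = 0.76 (exact permutation p = 0.0138, adjusted p = 0.0483) and rho = 0.63 (exact permutation p = 0.0760, adjusted p = 0.145), with 0.72 when shNT 1 and shNT 2 were left out. The 10 pairs that take a gene from each pattern had r from -0.73 to -0.04, none with an adjusted p under 0.05. Within the larger set of names these pairs ran from -0.96 (Stxbp6 with Tdo2) to 0.23 (Trpc6 with Lct), so not all were negative there. Trpc6 with Lct also had rho = 0.07 over the 9 samples.

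**Figure D4:**
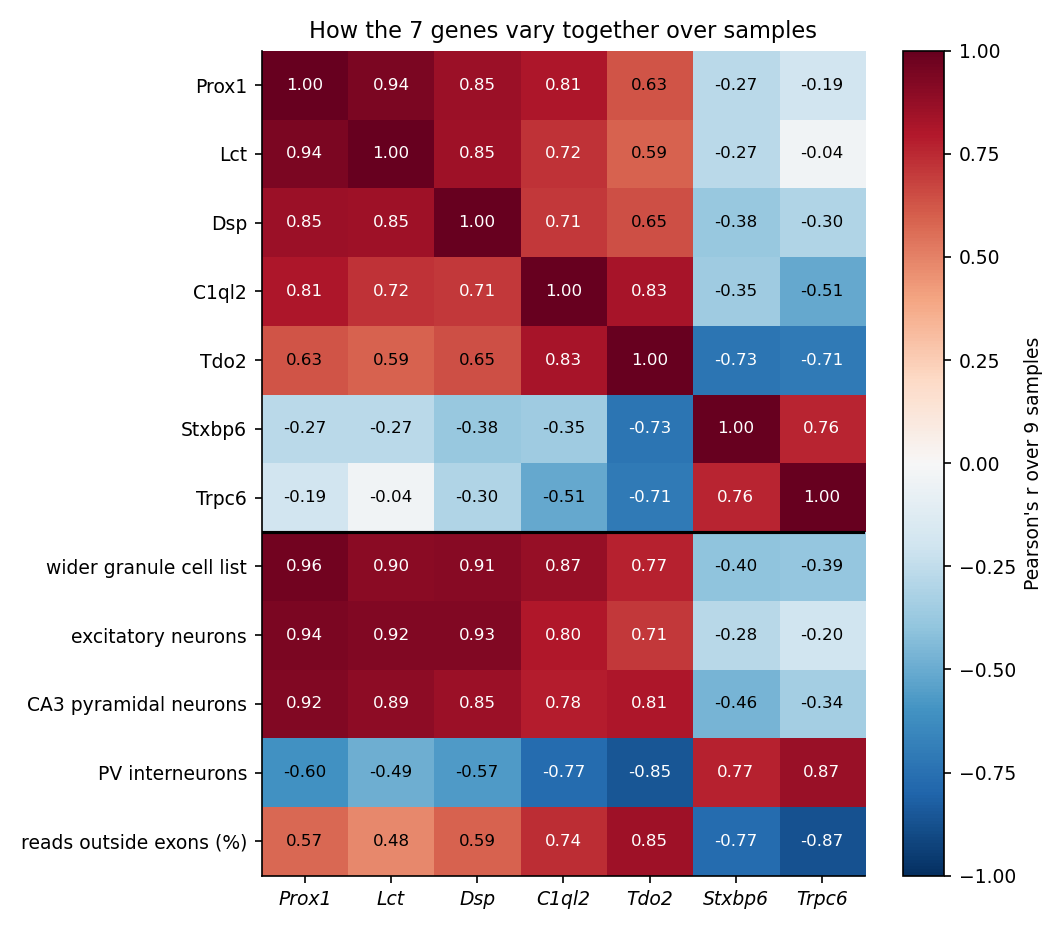
Pearson's r over the 9 samples between the log2 levels of the 7 genes (upper rows) and with the mean level of 4 marker lists and the share of reads outside exons (lower rows). Prox1, Lct, Dsp, C1ql2 and Tdo2 are positive with each other (0.59 to 0.94) and with the wider granule cell list, while Stxbp6 and Trpc6 are positive with each other (0.76) and with PV interneuron genes. In the larger set of names r with the wider granule cell list was only 0.12 for C1ql2 and 0.10 for Tdo2.

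The share of reads outside exons moved with some members. Trpc6 was lower where that share was higher (r = -0.87, exact permutation p = 0.00562, adjusted p = 0.0197 over 7 genes; rho = -0.67, exact permutation p = 0.0589, adjusted p = 0.103), with r = -0.81 without shRNA 1 and shRNA 4. That value still includes shNT 2, which had 18.6% outside exons and the lowest Trpc6 level in shNT (21.3 CPM). It therefore cannot show whether the relation holds without that library. No r without shNT 2, shRNA 1 and shRNA 4 together was computed for any member. Stxbp6 had r = -0.77 (exact permutation p = 0.0117, adjusted p = 0.0273) and rho = -0.73 (exact permutation p = 0.0311, adjusted p = 0.0726). Tdo2 had r = 0.85 (exact permutation p = 0.00200, adjusted p = 0.0140) and rho = 0.77 (exact permutation p = 0.0214, adjusted p = 0.0726). For C1ql2, r = 0.74 (exact permutation p = 0.0232, adjusted p = 0.0406; rho = 0.55, exact permutation p = 0.133, adjusted p = 0.133) fell to 0.34 without shRNA 1 and shRNA 4, so it rests on those samples. Prox1 (r = 0.57), Dsp (r = 0.59) and Lct (r = 0.48) had adjusted exact permutation p of 0.116, 0.104 and 0.187. With this share in the model the log2 fold changes of Prox1, Dsp and Lct were 0.85, 1.07 and 1.52 (edgeR FDR 0.0977, 0.230 and 0.109).

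Marker lists of other cells, chosen with earlier results of these data known, were set beside the members. A list of 14 further granule cell genes went up and down with Prox1 (r = 0.96, exact permutation p = 3.58e-05, adjusted p = 0.000849 over 28 relations; rho = 0.97, exact permutation p = 0.000165, adjusted p = 0.00231), and this r was 0.95 without shNT 4 and shRNA 4. The list of general excitatory neuron genes (Slc17a7, Neurod2, Neurod6 and Camk2a), which are not particular to granule cells, did so as closely, with r = 0.94 for Prox1 (exact permutation p = 0.000102, adjusted p = 0.000952; rho = 0.93, exact permutation p = 0.000750, adjusted p = 0.00350), 0.93 for Dsp and 0.92 for Lct. Their values without shNT 4 and shNT 5 were 0.92, 0.80 and 0.89. Lists of glia also followed some members, as a description. Prox1 had r = 0.92 with the oligodendrocyte precursor list, which holds 2 genes, and Dsp had r = 0.91 with the microglia list. With the endothelial list Prox1 had r = 0.28. C1ql2 had r = 0.92 with the list of CGE-derived interneurons, beside 0.87 with the further granule cell genes. Tdo2 had r = 0.91 with the oligodendrocyte list, beside 0.77 with the further granule cell genes. In the larger set of names r with the further granule cell genes was 0.12 for C1ql2 and 0.10 for Tdo2. The pattern was thus not particular to excitatory neuron genes. Stxbp6 and Trpc6 followed the list of PV interneuron genes instead, with r = 0.77 (exact permutation p = 0.00637, adjusted p = 0.0137; rho = 0.83, exact permutation p = 0.00827, adjusted p = 0.0210) and r = 0.87 (exact permutation p = 0.00426, adjusted p = 0.00993; rho = 0.63, exact permutation p = 0.0760, adjusted p = 0.101). Without shNT 2 and shRNA 4 the former was 0.72 and the latter fell to 0.40, so the relation of Trpc6 rests on those samples. With group means taken out, r of Prox1 with the list of further granule cell genes was 0.89. All these levels come from the same libraries and share their depth and normalization.

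The genes whose pattern was most like each member were taken from 10942 genes with a mean of at least 5 CPM, by Pearson's r of log2 CPM over the 9 samples, as a description. For Prox1 they were Trpm3, Rin1 and Plekhg5 (r of 0.99 each). For Lct they were 5730419I09Rik (0.99), Grid1 and Tiam2 (0.98 each), and for Dsp Slit3 (0.99), 5830418K08Rik (0.98) and Phip (0.97). For C1ql2 they were Sertad2 (0.98), Cenpb and Smad5 (0.96 each), and for Tdo2 Bdnf (0.98) and Pik3c2b (0.96). Stxbp6 was most like Tcerg1l, B230120H23Rik (0.95 each) and Tspyl5 (0.94), and Trpc6 was most like Ergic1, Rap1gds1 (1.00 each) and Peli3 (0.99).

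The 14 further granule cell genes all had positive log2 fold changes, with a median of 1.24 (0.82 without shRNA 4 and 0.48 in the larger set of names), and 2 of them were called higher, where 1.74% of all genes were. Of all 15069 genes tested, 8732 had positive log2 fold changes and 6337 negative, which is the background for this list and those below. Il16, a cytokine precursor, was at 18.7, 13.0, 10.1, 3.88 and 5.05 CPM in shNT and at 43.5, 45.2, 55.8 and 20.8 CPM in shRNA (log2 fold change 2.02, SE 0.43, edgeR FDR = 0.0433). Dock10, a guanine nucleotide exchange factor, was at 24.2, 25.5, 17.6, 10.1 and 10.9 CPM and at 43.5, 37.5, 48.1 and 46.2 CPM (log2 fold change 1.31, SE 0.27, edgeR FDR = 0.0424). Neither gene overlapped between groups, where 8.97% of all genes were higher without overlap. C1ql3, Npnt and Sema5a did not overlap either but were not called. These calls and those of the lists below were lost when shNT 3, shNT 4, shNT 5, shRNA 1 or shRNA 3 was left out, since 0 genes were then called higher, and with library size alone or in the larger set of names. In that larger set Il16 was at 1.75 and Dock10 at 0.90. The most abundant of the list, Ahcyl2, had a log2 fold change of 0.41 (edgeR FDR = 0.112). Of 4 genes of immature granule cells tested, Neurod1, a transcription factor of neuron differentiation, rose (6.07 ± 1.89 to 14.3 ± 2.97 CPM, log2 fold change 1.23, edgeR FDR = 0.0472). Exons of Il16 overlap Stard5 and 2310044K18Rik over 17.4% of their length, and those of Neurod1 overlap Cerkl and Gm17325 over 13.0%. Of 5 mossy cell genes 0 were called by edgeR's quasi-likelihood test. By the same test 3 had an unadjusted p under 0.05, beside 20.7% of all genes that were higher at that p. The median log2 fold change of the 5 was 0.83. Calb2 and Csf2rb2 of that list did not overlap between groups (log2 fold changes 0.56 and 1.59, edgeR FDR 0.125 and 0.0655).

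Among genes of other hippocampal excitatory neurons, 2 were called, where 1.74% of all genes were called higher. All 7 CA3 pyramidal genes had positive log2 fold changes, with a median of 0.69, and Grik4, a kainate receptor subunit, and Nectin3, an adhesion protein of mossy fiber contacts, were called (log2 fold changes 1.17 and 1.01, edgeR FDR 0.0403 and 0.0439). The most abundant of the list, Dkk3, was at 0.69 (edgeR FDR = 0.0662). Of 5 tested CA2 genes 4 were positive and 1 negative, Pcp4 (-0.17, edgeR FDR = 0.692). Without a call but without overlap were Amigo2 and Rgs14 of CA2 (0.68 and 0.63, edgeR FDR 0.0503 and 0.0778), Fibcd1 of CA1 (0.95, edgeR FDR = 0.0630) and Neurod6 (0.83, edgeR FDR = 0.0621). Camk2a, the most abundant excitatory gene, was at 0.76 (edgeR FDR = 0.0924) and overlapped, as did Wfs1 of CA1 (0.09, edgeR FDR = 0.780). Slc17a7, the vesicular glutamate transporter of these neurons, was at 258 ± 83.4 CPM in shNT and 433 ± 59.1 CPM in shRNA (log2 fold change 0.75, edgeR FDR = 0.0754) with no overlap. As a percent of Slc17a7 in the same sample, a scale chosen after seeing the data, Prox1 was at 8.20 ± 1.54 in shNT and 9.40 ± 2.03 in shRNA and the groups overlapped (exact permutation p = 0.333). Dsp was at 2.07 ± 1.58 and 3.50 ± 0.986 and also overlapped (exact permutation p = 0.127). Lct was at 1.15 ± 0.463 and 2.23 ± 0.475, with no overlap (exact permutation p = 0.0159). On the same scale Stxbp6 was lower in shRNA, at 30.4 ± 11.4 and 14.7 ± 2.64 (exact permutation p = 0.0238), as was Trpc6, at 14.1 ± 6.37 and 6.99 ± 2.19 (exact permutation p = 0.0317), both with overlap. C1ql2 was at 5.35 ± 0.503 and 4.41 ± 2.04 (exact permutation p = 0.214) and Tdo2 at 0.536 ± 0.232 and 0.492 ± 0.268 (exact permutation p = 0.667).

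**Figure D5:**
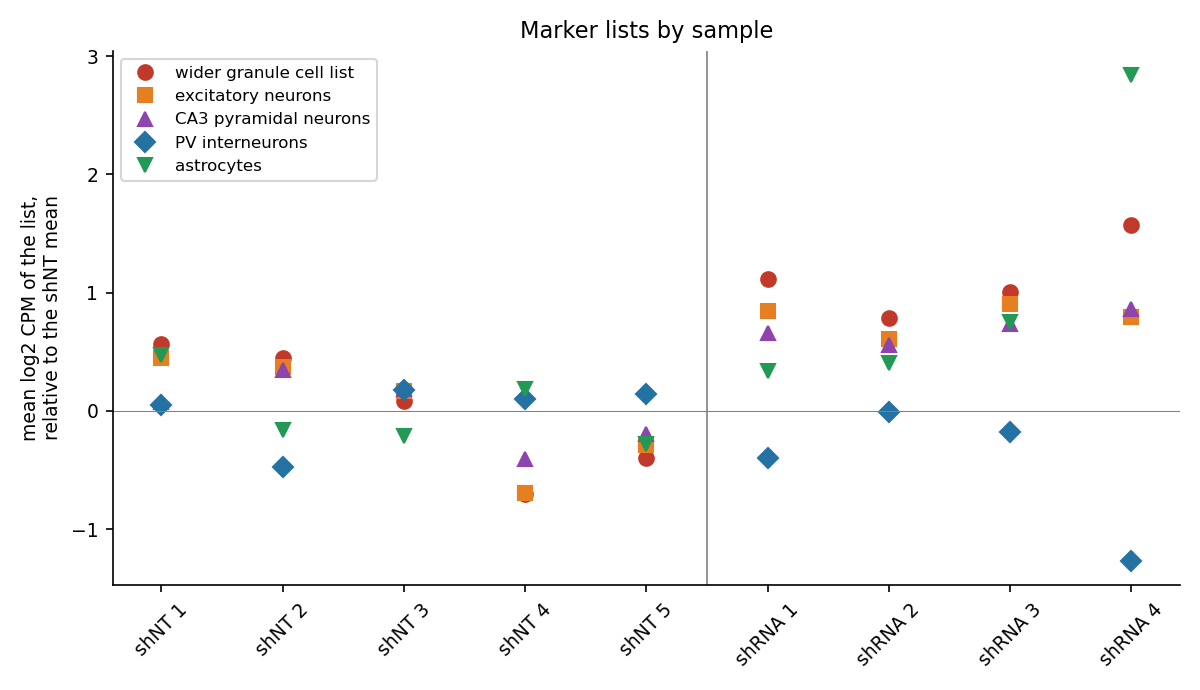
Mean log2 CPM of 5 marker lists in each sample, with the shNT mean set to 0 (vertical axis). Granule cell, excitatory and CA3 lists are above 0.5 in all 4 shRNA samples, the PV interneuron list is lowest in shRNA 4 (-1.27), and the astrocyte list stands at 2.84 there.

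Genes of other cell types also moved, and their part in the values of the 7 genes was not tested. The 11 PV interneuron genes all had negative log2 fold changes, with a median of -0.37, 0 called by edgeR's quasi-likelihood test and 2 at an unadjusted p under 0.05, and their summed level ran from 5281 to 8567 CPM in shNT and from 3119 to 7573 CPM in shRNA. That median was -0.16 without shRNA 4 and 0.12 with the share of reads outside exons in the model. All 6 astrocyte genes were positive, with a median of 1.53 and a summed level of 320 to 575 CPM in shNT and 515 to 3072 CPM in shRNA, the highest being shRNA 4. Without shRNA 4 the astrocyte median was 0.46. In the astrocyte list Aldh1l1 and Fgfr3 did not overlap between groups, and Gfap was the most abundant. All 5 oligodendrocyte genes were positive, with a median of 0.77, with Cnp without overlap and Mbp the most abundant. No gene of these 3 lists was at 0 in any sample. Single calls came from further lists: Pdgfra of oligodendrocyte precursors (log2 fold change 1.21, edgeR FDR = 0.0403), Adarb2 of CGE-derived interneurons (1.62, edgeR FDR = 0.0497) and Plekhg1 of thalamus (1.82, edgeR FDR = 0.0403). In those lists 3 of 8 CGE genes were negative, among them the most abundant, Cck (-0.47, edgeR FDR = 0.161), and Tnnt1 of thalamus was lower without overlap (-0.69, edgeR FDR = 0.0716). Medians over the other lists were 0.66 for microglia, 0.87 for choroid plexus and ependyma, 0.50 for endothelium, 0.41 for fibroblasts and 1.16 for nuclear noncoding RNAs, among which Malat1 was at 0.90 (edgeR FDR = 0.405). Without shRNA 4 the medians for choroid plexus and ependyma, endothelium, fibroblasts and nuclear noncoding RNAs were 0.13, -0.91, -0.20 and 0.35. Without shNT 2 and shRNA 4 the log2 fold changes of Prox1, Dsp and Lct were 0.90, 1.87 and 1.68 (edgeR FDR 0.0562, 0.0904 and 0.0826), and their groups still did not overlap.

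Each pathway list of the members gave at most 1 call, where 1.74% of all genes were called higher. Among 7 tested genes of the C1q-like group and its partners, Grik4 rose, as above, while C1ql3, at 3.86 ± 1.32 and 8.28 ± 1.95 CPM, and Adgrb3, a receptor of C1q-like proteins, at 41.4 ± 10.1 and 63.9 ± 3.25 CPM, did not overlap but were not called (edgeR FDR = 0.0630 for each). Nrxn3, the most abundant of these and a presynaptic partner of C1q-like proteins, had a log2 fold change of 0.02 (edgeR FDR = 0.958). Of 6 other TRPC channels, Trpc5 rose from 3.62 ± 0.998 to 8.96 ± 1.88 CPM (log2 fold change 1.30, edgeR FDR = 0.0403), and Trpc7, a close relative of Trpc6, did not overlap between groups but was not called (log2 fold change 0.91, edgeR FDR = 0.0756). Of 9 desmosome genes besides Dsp, 6 were tested and Pkp2, a plakophilin that binds desmoplakin, rose from 11.7 ± 5.39 to 33.8 ± 10.5 CPM (log2 fold change 1.53, edgeR FDR = 0.0422), while the most abundant, Pkp4, was at 0.10 (edgeR FDR = 0.609). Of 7 SNARE genes 0 were called by edgeR's quasi-likelihood test and 2 had an unadjusted p under 0.05. Those 2, Snap25 and Vamp2, were lower in every shRNA sample than in every shNT sample (log2 fold changes -0.56 and -0.51, edgeR FDR 0.119 and 0.0946), where this held for 6.68% of all genes. Of 9 genes of tryptophan breakdown along the kynurenine pathway, in which Tdo2 acts, 3 reached the CPM minimum. By edgeR's quasi-likelihood test 0 of them were called and 0 had an unadjusted p under 0.05, the most abundant being Kyat1 (log2 fold change -0.15, FDR = 0.495).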

How the data were processed

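Ribosome-associated RNA was immunoprecipitated from CA3/CA2 PV INs of 5 shNT and 4 shRNA samples. The authors aligned reads to mm9 with STAR and used HTSeq 0.6.0, blind to strand, to assign unique alignments to genes. They deposited these counts without normalization, and the annotation they used is not given in the sources used here. Gene names, mm9 positions and exon lengths came from GENCODE M1 (37205 of 37620 identifiers named). Lines for reads on no gene were left out of library sizes.

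A gene was tested if any sample reached 1 CPM, which left 15069 and removed 22551. Counts were normalized with TMM and tested in R 4.3.3 with edgeR 4.0.16 (quasi-likelihood test, condition as the only term, Benjamini-Hochberg FDR), with the likelihood ratio test, limma 3.58.1 (voom) and DESeq2 1.42.0 as alternatives. The study's methods name edgeR and these thresholds but not which edgeR test. Log2 levels used a prior count of 2. Single values were compared by exact permutation over all assignments of the 9 samples, and relations over all pairings of the 9 samples. The scripts were tested on simulated data. Depth, from 18281719 to 34578837 counts, keeps counting error small for all members but Tdo2 and, in shNT, Lct and Dsp. Each sample is a pool of 6 mice, so p-values measure the spread between pools.

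The 7 genes and all lists were chosen with earlier results of these data known, and the promoter motifs and the scale relative to Slc17a7 were added after the files were read. Besides the members, Ablim3 and Bok, the genes named are from each list the most abundant, any called and any whose groups do not overlap, with the 3 genes most like each member; list results are given for the lists that bear on the members. Pvalb was named after their values were seen. A few genes that this rule names are not reported here.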

Additional observations from a re-analysis of the deposited data

How the results depend on the processing

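The log2 fold changes of Prox1, Dsp and Lct stayed positive under all 22 alternatives run for each. Prox1 was called with the likelihood ratio test (0.96), DESeq2 (0.92), limma voom (1.09), no filter beyond 1 read (0.93), a CPM of at least 1 in at least 4 samples (0.99) and the set of sample names as a term (0.96); leaving out each sample in turn gave 0.78 to 1.13. Lct was called with the likelihood ratio test (1.59), DESeq2 (1.56), limma voom (2.06) and the set of names as a term (1.69), and ran from 1.26 to 1.86 with each sample left out. Dsp was called with limma voom only (2.32) and ran from 1.05 to 1.80 with each sample left out, and its log2 difference with library size alone, 1.90, missed the exact permutation threshold (p = 0.0635). The sign turned for C1ql2 in the larger set of names (-0.13), for Stxbp6 with reads outside exons as a term (0.033), for Tdo2 with that term (-0.0054) and in the larger set (-0.11), and for Trpc6 with limma voom (0.046), that term (0.32) and the larger set (0.010); the cause was not tested. With each sample left out, C1ql2 ran from 0.15 to 0.59, Stxbp6 from -0.28 to -0.11, Tdo2 from 0.21 to 0.96, Trpc6 from -0.28 to 0.077 (positive only without shRNA 4) and Ablim3 from -0.044 to 0.26 (-0.044 without shNT 5 and -0.011 without shRNA 1).

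Of the 7 genes, 2 were called with the likelihood ratio test, 2 with DESeq2, 3 with limma voom, 1 with no filter, 1 with the stricter filter, 2 with the set of names as a term, and 0 to 2 with each sample left out. Of all genes, 262 higher and 2 lower calls became 1688 and 542 (likelihood ratio test), 1532 and 833 (DESeq2), 2301 and 618 (limma voom), 501 and 14 (no filter), 678 higher (without shNT 2 and shRNA 4), and 0 and 0 with library size alone, upper quartile, reads outside exons as a term or the larger set of names. Higher and lower calls were 352 and 8 of 13662 genes with the stricter filter. Of 15069 genes they were 199 and 1 with DESeq2 size factors and 376 and 1 with the set of names as a term. Leaving out each sample gave 0 to 1007 higher and 0 to 410 lower calls. The replicate block gave 29 higher and 0 lower; same-numbered samples correlated at -0.27, -0.64, 0.49 and -0.18, so the numbers do not pair them, and the block is only a setting. The count of 3 genes without overlap stayed 3 with each sample left out, and was 2 with library size alone, alternatives chosen after seeing the data. Tdo2, at 14 to 74 reads, is the member most limited by depth.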
